A study of Mus musculus with 4 samples.

Results

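Among 13002 single myeloid cells from mouse brain that passed quality control, 67 carried many transcripts of the major histocompatibility complex (MHC) class II genes, and they are described here as class II high cells. A cell was counted when its unique molecular identifiers (UMIs, each standing for 1 captured RNA molecule) for Cd74, H2-Aa, H2-Ab1 and H2-Eb1 added up to 10 or more. Cells were kept when at least 400 genes were detected and at most 10% of UMIs came from mitochondrial genes, which removed 136 of 13138 barcodes. The remaining 12935 cells served as the comparison.

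All cells came from the cortex and hippocampus of 4 male C57BL/6J mice at postnatal day 90, 1 library per mouse, and the 4 libraries form 1 group with no untreated or otherwise treated counterpart. Every mouse had been injected with PBS through the tail vein, 24 h before sacrifice by the labels and somewhat less by the study's methods, and every brain was homogenised in the cold with a Dounce, without enzyme. Myelin was removed with Percoll and live cells were sorted. The study's methods describe a gate on CD45 and CD11b, while its sample overview adds CX3CR1 for this dataset, so border cells low in CX3CR1 may have been lost. The study also states that the sorter clogged during its last animal, which spent longer at room temperature. It names that animal Sample 4, a number that the labels of these libraries do not carry, so it was not matched to a library here. Replicates are numbered by accession order and the numbers carry no order.

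MHC class II molecules are pairs of α and β chains that present peptides from the endosome to CD4+ T cells. Cd74, the invariant chain, occupies the groove of a new molecule until it is cut away by proteases of the cathepsin family and legumain, after which H2-DM helps the peptide in and H2-O restrains H2-DM. Transcription depends on Ciita, a coactivator that binds no DNA itself and is held at the promoter by RFX, CREB and NF-Y, which sit on the X and Y boxes. In the resting brain parenchyma microglia carry little class II, whereas macrophages of the meninges, perivascular spaces and choroid plexus, monocytes and dendritic cells can carry much.

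Promoter windows of class II genes are shown first, because the cells were chosen by their UMIs for Cd74, H2-Aa, H2-Ab1 and H2-Eb1. Of these genes, only H2-Aa and H2-Eb1 have a window printed here. H2-Ab1 had no window among the promoters searched, and none is printed for Cd74. H2-DMb1 and H2-DMb2 are printed as further class II genes and were not used to choose cells. The sequences are RefSeq's, on GRCm38.p6, and each gives the 150 bases before the transcription start, 5′ to 3′ on the strand of the gene, with capitals marking TGATTGG (the Y box core) and either GATGATG (the end of the X box) or TGACGTCA (a CREB-type site). H2-Aa codes for the α chain of the I-A molecule (chr17:34287824-34287973, minus strand), H2-Eb1 for the β chain of I-E (chr17:34305717-34305866, plus strand), and H2-DMb1 (chr17:34153041-34153190) and H2-DMb2 (chr17:34145099-34145248, both plus strand) for β chains of H2-DM.
H2-Aa: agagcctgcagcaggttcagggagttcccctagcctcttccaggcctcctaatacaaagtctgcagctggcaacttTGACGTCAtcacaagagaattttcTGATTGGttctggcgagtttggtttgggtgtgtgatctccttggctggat
H2-Eb1: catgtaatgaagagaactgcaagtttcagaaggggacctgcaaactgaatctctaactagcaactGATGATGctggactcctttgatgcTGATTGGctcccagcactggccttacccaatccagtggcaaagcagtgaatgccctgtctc
H2-DMb1: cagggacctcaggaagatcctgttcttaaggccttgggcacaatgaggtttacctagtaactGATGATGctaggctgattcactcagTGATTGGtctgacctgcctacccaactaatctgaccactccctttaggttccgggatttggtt
H2-DMb2: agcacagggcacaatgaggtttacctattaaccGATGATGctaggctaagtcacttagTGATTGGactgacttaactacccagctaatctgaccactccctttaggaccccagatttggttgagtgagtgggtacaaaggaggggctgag

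TGATTGG lay in each of these windows, from 50 to 44 bases before the start in H2-Aa, 61 to 55 in H2-Eb1, 63 to 57 in H2-DMb1 and 92 to 86 in H2-DMb2. The second motif lay upstream of it in each, from 74 to 67 bases before the start for TGACGTCA in H2-Aa, and from 85 to 79, 88 to 82 and 117 to 111 for GATGATG in H2-Eb1, H2-DMb1 and H2-DMb2. Both strands of the 250 bases before the start of 32851 promoters were searched with the same letters. TGATTGG was held by 7.23% of them, GATGATG by 2.92%, TGACGTCA by 1.55%, and TGATTGG together with either of the others by 0.326% (107 promoters). The windows of H2-Oa and H2-Ob held TGATTGG and neither of the others, and both windows of H2-DMa held none of the 3. The motifs were chosen with these promoters in view, they do not overlap within these windows, and a match describes letters and not a bound site.

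The class II genes themselves were high by construction, and their levels are a description. In the class II high cells they took 6.70%, 3.51%, 7.62% and 6.77% of all UMIs in replicates 1 to 4. Cd74 gave 3.16% ± 0.955 of the UMIs (SD, n = 4), H2-Ab1 1.12% ± 0.309, H2-Aa 1.06% ± 0.307 and H2-Eb1 0.807% ± 0.248. Replicate 2 was the lowest for all 4 genes. Cd74 was found in each of the 67 cells, H2-Ab1 in 60, H2-Aa in 57 and H2-Eb1 in 55, and 53 cells held all 4. The 4 genes also kept similar proportions across the marker classes defined below, with Cd74 giving 49.7% of class II UMIs in macrophage-marked, 52.7% in monocyte-marked and 53.9% in unmarked cells.

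The level spread widely between cells. The class II sum ran from 10 to 987 UMIs with a median of 226; 45 cells held 100 or more, 12 held 20 to 99 and 10 held 10 to 19. At the edge of the rule, 7 kept cells had 7 to 9 UMIs and 6 had 10 to 12. By the marker rule given further on, the 7 just outside were all unmarked, as were 5 of the 6 just inside. The 67 cells held 86.1% of all class II UMIs among kept cells. Of the other cells, 10.6%, 12.1% and 11.0% had at least 1 class II UMI in replicates 1 to 3, and 29.1% in replicate 4, at a median depth of 1904.5, 2935, 2194 and 2784.5 UMIs. Free RNA can place single UMIs in cells that do not express a gene, so these shares are not read as expression.

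The number of class II high cells differed between libraries. They made up 0.280% of kept cells in replicate 1 (10 of 3576, 95% exact Clopper-Pearson interval 0.134 to 0.514%), 0.325% in replicate 2 (12 of 3692, 0.168 to 0.567%), 0.272% in replicate 3 (7 of 2576, 0.109 to 0.559%) and 1.20% in replicate 4 (38 of 3158, 0.853 to 1.65%). The interval of replicate 4 did not meet those of the others, and by Dixon's range test its gap to the next library was 0.943 of the whole range, above the 95% critical value for 4 samples. The mean was 0.520% ± 0.456 (SD, n = 4) with replicate 4 and 0.292% ± 0.0288 without it. The median depth of the class II high cells was 3200 UMIs in replicate 4, against 3692.5, 3545 and 3459 in replicates 1 to 3, and that of the other cells 2784.5, against 1904.5, 2935 and 2194. Replicate 4 also had the most immediate early transcripts in both populations: Fos, Jun, Junb, Jund, Egr1, Atf3, Ier5 and Zfp36 together reached 2421 CPM (UMIs of a gene per 1000000 UMIs, the 4 genes of the rule left out) in its class II high cells and 2552 CPM in its other cells, against 765 to 1301 and 1179 to 1377 CPM elsewhere. Whether depth or these transcripts bear on the number of cells was not tested.

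**Figure D1:**
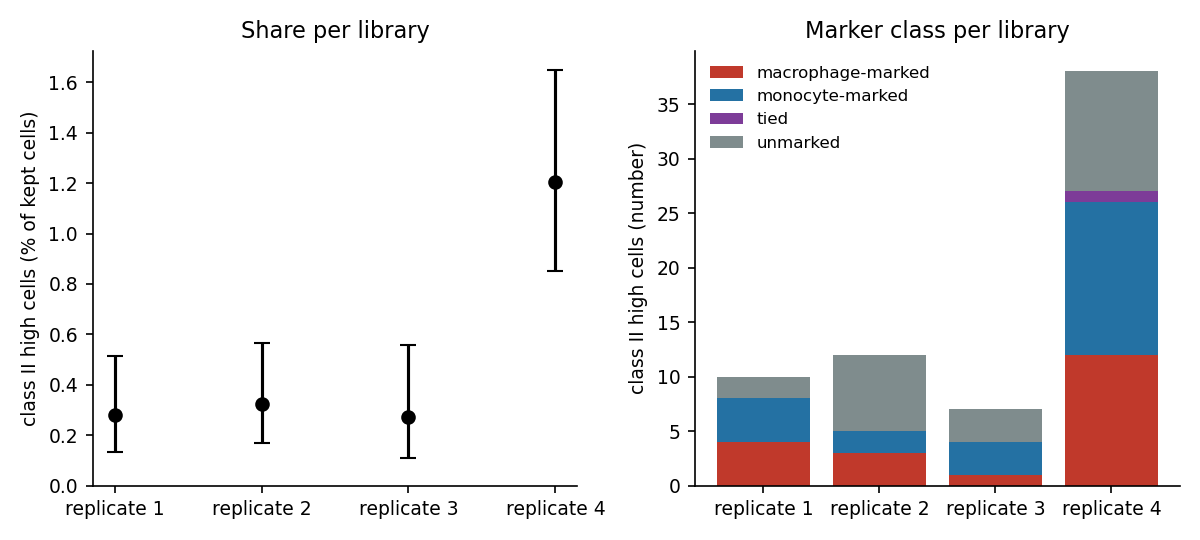
Left, class II high cells as a percentage of kept cells in each of the 4 libraries, with 95% exact Clopper-Pearson intervals. Right, the number of class II high cells in each library by marker class. Replicate 4 sits at 1.20% with 38 cells, above the 0.272 to 0.325% and 7 to 12 cells of the others.

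The first comparison asked whether the label of border myeloid cells held by markers that the rule did not use. Macrophage and monocyte genes were present and microglial genes were low. Pf4 (platelet factor 4, marks border macrophages) was found in 27 of the 67 cells, Mrc1 (mannose receptor) in 25, Ms4a7 in 18 and Cd163 (haemoglobin scavenger receptor) in 4. Among monocyte genes, Ccr2 (receptor for Ccl2, marks classical monocytes and their progeny) was found in 35 cells, S100a4 in 15, Plac8 in 10 and Ly6c2 in 2. Of the defining markers of border macrophages, F13a1 was found in 12 cells and Cbr2 in 2, while Lyve1 and Folr2 had no UMI in any, which allows up to 12.2 CPM (3 UMIs over all 67 cells).

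The 8 microglial markers Tmem119, P2ry12, Siglech, Sall1, Slc2a5, Fcrls, Olfml3 and Sparc summed to 3118, 9276, 2565 and 4690 CPM in the class II high cells of replicates 1 to 4 and to 19553, 20188, 20174 and 20169 CPM in the other cells. The ranges did not overlap. The means were 4912 ± 3046 and 20021 ± 312 CPM (SD, n = 4), a difference of -15109 ± 2931 CPM that was negative in 4 of 4 libraries. An exact two-sided sign-flip permutation test gave the smallest p that 4 pairs allow, which cannot pass 0.05. In replicate 2 the class II high cells stood at 46.0% of the other cells, against 12.7 to 23.3% in the other libraries.

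Markers of most further cell types were at or near 0. The neutrophil (7 genes), T and NK cell (7), erythroid (3), choroid epithelium (4) and proliferation (5) lists had no UMI in the class II high cells. Of 7 B cell genes only Cd79b was seen, with 7 UMIs and at 29.4, 37.2, 39.5 and 22.8 CPM against 46.7 to 51.1 CPM in the other cells, and Cd79a and Ms4a1 were at 0. The neuronal list held 1 UMI and the astrocyte list 3. The endothelial list held 8 UMIs, 75.0% of them Pecam1, at 29.4 to 39.5 CPM against 21.3 to 28.4 CPM, and the oligodendrocyte list held 15, at 39.5 to 93.0 CPM against 50.3 to 59.5 CPM. The dendritic list held 174 UMIs, at 502 to 794 CPM against 642 to 771 CPM in the other cells, so its sum was not raised. Of its 5 genes in the test described below, 3 were higher and 1 was lower, and the list median log2 fold change was 4.07. The 3 could only have been called higher. Cd209a gave 46.6% of the 174 UMIs, and Xcr1, Clec9a and Ccr7 were at 0. The cells thus held macrophage and monocyte marks, and dendritic marks in a few, but no marker here places a cell at a border of the brain.

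The second comparison asked which genes outside the rule differed between class II high cells and all other kept cells. Within each library the UMIs of class II high cells were added up, as were those of the other cells, and edgeR's quasi-likelihood test with the mouse as a block was run on the 4 sums against 4. Of 10095 genes tested, 461 were higher in class II high cells at a Benjamini-Hochberg adjusted p of 0.05 or less, or 4.57%, and 450 were lower, or 4.46%. The median log2 fold change of all genes tested was -0.44 under the main scaling (TMM), -0.37 with library totals and -0.31 with DESeq2's size factors. Differences are to be read against that median. Leaving out replicate 4, which supplied 38 of the 67 cells, left 212 higher and 286 lower calls, all 212 and 253 of them among the original ones. Without replicate 1 there were 312 and 187, without replicate 2 346 and 275, and without replicate 3 385 and 409. DESeq2's Wald test called 482 higher and 175 lower, so the share of calls that were higher was 73.4% there and 50.6% in edgeR. It was 59.8% with DESeq2's size factors in edgeR, and 29.7% when each cell was thinned to 1000 UMIs (93 higher, 220 lower). No gene called both in the main fit and in an alternative changed sign.

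The 10 genes with the largest rise at 100 CPM or more were Ccnd2, Clec12a, Plbd1, Clec4b1, Sirpb1b, S100a6, Mndal, Sirpb1c, S100a4 and Mgl2, with log2 fold changes from 9.02 to 7.16. Genes were taken only if they stood above the other cells in all 4 libraries, so that order was set by the choice. For 9 of these 10 the other cells were too low for the gene to enter the test without the class II high cells, so they could only have been called higher. This held for 343 of all genes tested, and among the remaining 9752 genes 299 were higher (3.07%).

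Clec12a is an inhibitory C-type lectin of myeloid cells (ENSMUSG00000053063, chromosome 6). It stood at 176, 186, 237 and 304 CPM in the class II high cells of replicates 1 to 4 and at 0.855, 0.178, 0.344 and 1.02 CPM in the other cells. The 4 values of the former were all above 100 and the groups did not overlap (log2 fold change 8.43 ± 0.57 SE, edgeR adjusted p = 1.76e-46). Clec12a, like Ccnd2 and Mgl2 below, was among the 9 genes that could only have been called higher. It was found in 34 of the 67 cells.

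Ccnd2, a D-type cyclin, had the largest log2 fold change, at 265, 149, 631 and 137 CPM against 0 to 1.20 CPM (9.02 ± 0.58 SE, edgeR adjusted p = 4.03e-51). No gene of the proliferation list was detected in the same cells. Mgl2, a galactose-type lectin of macrophages and dendritic cells, stood at 58.8, 521, 237 and 357 CPM against 0.142 to 2.94 CPM (log2 fold change 7.16 ± 0.37 SE, edgeR adjusted p = 1.37e-80) and was found in 22 cells. S100a6 and S100a4, calcium-binding proteins of motile cells, reached 223 to 986 CPM and 130 to 671 CPM, lowest in replicate 2 for both. Plbd1, a lysosomal phospholipase, stood at 353, 55.8, 316 and 304 CPM, again with replicate 2 low.

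The 10 genes with the largest fall at 100 CPM or more were Rtn4rl1, Slc16a6, Nav3, Sox4, Camk2n1, Abhd6, P2ry12, Sgce, Slc1a3 and 0610040J01Rik, with log2 fold changes from -2.97 to -2.49. P2ry12 is the purinergic receptor by which microglia sense nucleotides (ENSMUSG00000036353, chromosome 3). It stood at 794, 2138, 395 and 1009 CPM in the class II high cells against 5191, 5377, 5687 and 5566 CPM in the other cells (log2 fold change -2.59 ± 0.29 SE, edgeR adjusted p = 2.79e-17). The groups did not overlap, and replicate 2 came nearest to the other cells. Slc1a3, a glutamate transporter, stood at 29.4, 55.8, 0 and 60.7 CPM against 219 to 277 CPM, and Sox4, a transcription factor, at 58.8, 93.0, 0 and 30.4 CPM against 247 to 315 CPM. Rtn4rl1 and Nav3 each had 3 UMIs in replicate 2, 1 in replicate 4 and none in the others, and the call of Nav3 was lost with thinned cells.

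**Figure D2:**
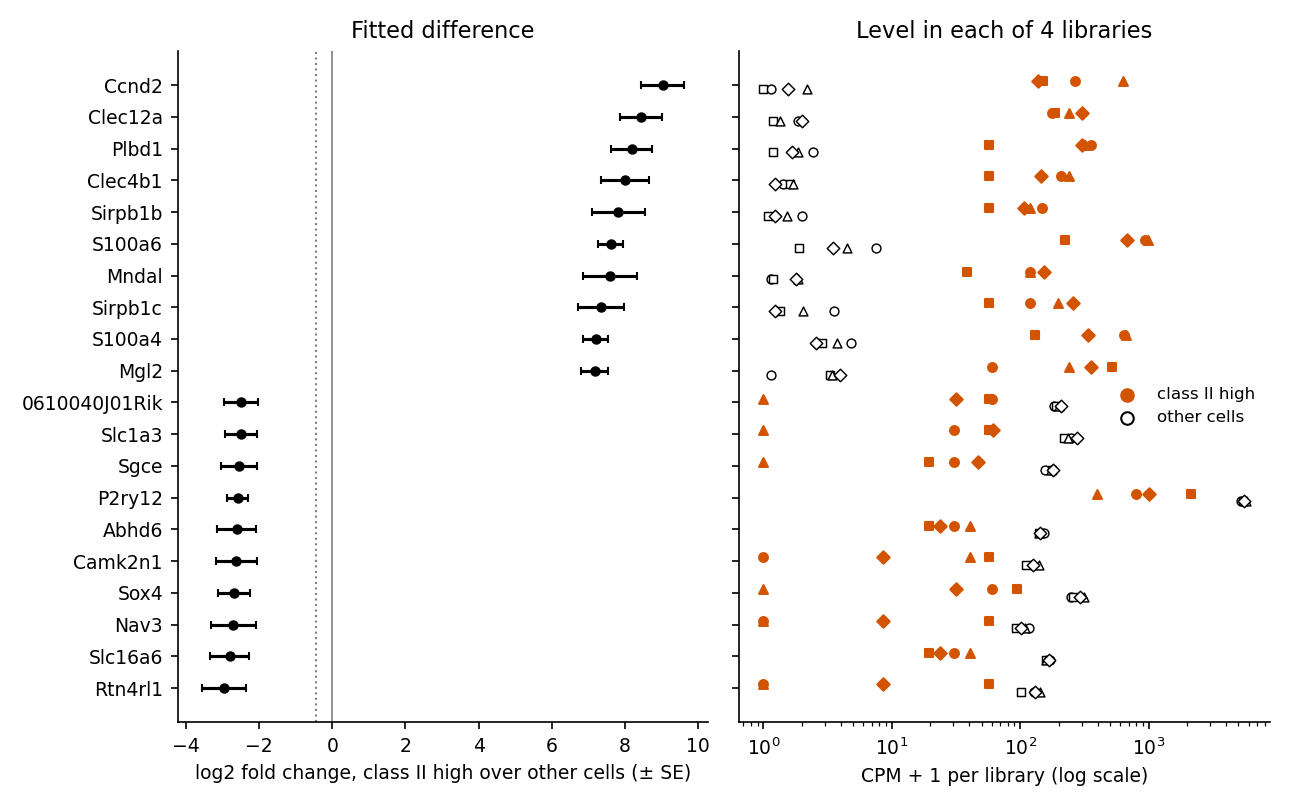
Left, log2 fold change of class II high over other cells with its SE for the 20 named genes, with a dotted line at the median of all genes tested (-0.44). Right, CPM + 1 on a log scale in each of the 4 libraries, filled for class II high cells and open for other cells (circle, square, triangle and diamond for replicates 1 to 4). The upper 10 genes lie near 0 CPM in the other cells, and P2ry12 is the only one of the lower 10 above 300 CPM in every class II high sum.

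The peptide-loading genes divided. Of 10 tested of the 11 on the list, 3 were higher, all subunits of H2-DM, and 3 were lower, Lgmn, Ctsl and March1. The list median of the log2 fold change was 0.045, and without replicate 4 2 were higher and 3 lower. H2-DMa (α chain, ENSMUSG00000037649, chromosome 17) stood at 1500, 948, 1460 and 1343 CPM against 394, 391, 385 and 367 CPM (log2 fold change 1.58 ± 0.25 SE, edgeR adjusted p = 2.22e-08), with no overlap. H2-DMb1, whose window with both motifs is printed above, stood at 1088, 613, 1144 and 888 CPM against 221, 203, 234 and 221 CPM (1.87 ± 0.26 SE, edgeR adjusted p = 1.99e-11). H2-DMb2 stood at 147, 0, 118 and 159 CPM against 8.69 to 11.4 CPM (3.39 ± 0.46 SE, edgeR adjusted p = 1.24e-11), from 29 UMIs that all lay in 4 cells. H2-DMb1 and H2-DMb2 fall outside the rule for named genes and were added for their promoters. The call of H2-DMa was lost when cells were thinned to 1000 UMIs (edgeR adjusted p = 0.246).

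The proteases ran the other way. Lgmn, the endopeptidase legumain, stood at 1530, 3588, 1697 and 2800 CPM against 6433 to 6947 CPM (log2 fold change -1.70 ± 0.27 SE, edgeR adjusted p = 2.84e-08). Ctsl, cathepsin L, stood at 382, 1134, 395 and 607 CPM against 1453 to 1792 CPM (-1.54 ± 0.27 SE, edgeR adjusted p = 1.05e-06). Ctss, cathepsin S, which cuts Cd74 in antigen-presenting cells, stood at 5030, 8960, 5406 and 7862 CPM against 9211 to 10232 CPM and did not pass (-0.71 ± 0.27 SE, edgeR adjusted p = 0.0759).

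The regulators of class II transcription gave little signal. Ciita had 9 UMIs, in 9 of the 67 cells, and did not pass the filter on low counts. Of the other 7 genes (RFX, NF-Y and CREB subunits), 1 was lower, Creb1, on 1 UMI in all class II high cells, and none was higher. The call of Creb1 was lost with DESeq2, without replicate 1, without replicate 4 and with thinned cells. At these counts differences of a few fold were not detectable. The list summed to 147, 149, 197 and 182 CPM, against 174 to 209 CPM in the other cells.

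Class I and costimulatory genes rose in part. Of 9 class I genes tested, 3 were higher and none lower, with a list median of 0.32. H2-D1 (class I heavy chain) stood at 1882, 2342, 2446 and 2861 CPM against 554 to 759 CPM (log2 fold change 1.74 ± 0.25 SE, edgeR adjusted p = 6.14e-10) and H2-K1 at 500, 651, 947 and 751 CPM against 279 to 404 CPM (0.97 ± 0.26 SE, edgeR adjusted p = 0.00405). B2m, the shared light chain, stood at 3630 to 5183 CPM against 3199 to 3546 CPM and did not pass (0.21 ± 0.26 SE, edgeR adjusted p = 0.689). The call of Psmb8 (edgeR adjusted p = 0.0468) was lost in 9 of the 15 alternatives, with the sign turned when cells were thinned, and that of H2-K1 in 3 (without replicate 2, without replicate 4 and with thinned cells). Without replicate 4, 1 class I gene was called. With thinned cells none was, H2-D1 included (log2 fold change 0.99, edgeR adjusted p = 0.157), and the list median was -0.35. Of 8 costimulatory genes tested, Cd52 and Cd40 were higher and Cd86 was lower. Cd40, with 6 UMIs, entered only through the class II high cells, and of the 6 genes that did not, 1 was higher. Cd52, a small surface glycoprotein of leukocytes, stood at 1853, 1301, 3275 and 2049 CPM against 204 to 267 CPM (2.92 ± 0.26 SE, edgeR adjusted p = 3.6e-27). Cd86, a ligand of CD28, stood at 58.8, 149, 118 and 152 CPM against 270 to 275 CPM (-1.19 ± 0.34 SE, edgeR adjusted p = 0.00813), and its call was lost without replicate 1, without replicate 2, with DESeq2 and with thinned cells. Without replicate 4, 1 costimulatory gene was higher and 1 lower.

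Lipid and scavenger genes were led by Apoe, which gave 95.9% of the UMIs of the list. Apoe, the apolipoprotein that carries cholesterol between brain cells, stood at 25031, 24204, 10693 and 24844 CPM in the class II high cells against 463, 532, 523 and 840 CPM (log2 fold change 4.95 ± 0.31 SE, edgeR adjusted p = 6.97e-53). It was found in 63 of the 67 cells, and replicate 3 was low. Of 8 genes tested of the list, 5 were higher and 1 lower, and without replicate 4 3 of 7 were higher and 1 lower. Of the 5 that could enter without the class II high cells, 2 were higher. Lgals3, galectin 3, stood at 588, 186, 355 and 759 CPM against 6.69 to 9.97 CPM, and Axl, a receptor for Gas6, at 88.2, 149, 197 and 182 CPM against 2.06 to 2.99 CPM. Axl was too low in the other cells to enter the test without the class II high cells, so it could only have been called higher. Mertk, a receptor of the same family as Axl, was lower, at 0, 74.4, 118 and 114 CPM against 245 to 329 CPM (-1.92 ± 0.37 SE, edgeR adjusted p = 1.04e-05), a call lost with thinned cells (edgeR adjusted p = 0.062).

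Monocyte genes were higher, though most could only be called so. All 13 genes tested of the 15 on the list of further monocyte genes were higher (median log2 fold change 5.56). Of these, 10 entered the test only through the class II high cells and could not have been called lower. The remaining 3 were higher as well. Without replicate 4, 9 of 11 were called. Lyz2, lysozyme of myeloid cells, gave 89.9% of the UMIs of the list. It stood at 11883, 9611, 11995 and 18683 CPM against 549, 483, 363 and 436 CPM (4.61 ± 0.30 SE, edgeR adjusted p = 1.82e-50) and was found in 66 cells. Napsa, an aspartic protease, stood at 441, 130, 513 and 212 CPM against 0.624 to 4.27 CPM. Chil3 came from replicate 4 alone, with 38 UMIs in 3 cells, and its call was lost with DESeq2 and with a class II sum of 20 or more. Ccr2 stood at 382, 446, 789 and 835 CPM against 4.55 to 6.70 CPM (6.62 ± 0.33 SE, edgeR adjusted p = 1.93e-86), and Plac8 at 176, 18.6, 2249 and 1024 CPM against 2.50 to 15.7 CPM.

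Of the border macrophage genes beyond those of the marker classes, 7 of 10 tested were higher and none was lower. The 10 include 4 that entered only through the class II high cells and could not have been called lower, and of the other 6, 4 were higher. Among them, F13a1 (coagulation factor XIII A chain) stood at 147, 74.4, 39.5 and 182 CPM against 0.855 to 6.43 CPM and Ms4a6c at 559, 279, 1578 and 842 CPM against 67.1 to 85.1 CPM. Stab1, a scavenger receptor, stood at 118 to 175 CPM against 216 to 246 CPM and did not pass (-0.69 ± 0.33 SE, edgeR adjusted p = 0.215). Pf4 stood at 677, 428, 118 and 478 CPM against 0 to 29.9 CPM (4.79 ± 0.31 SE, edgeR adjusted p = 2.78e-50) and Mrc1 at 88.2, 112, 39.5 and 235 CPM against 4.27 to 14.7 CPM.

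All 8 microglial markers given above and all 12 further microglial genes were lower, and the calls of the 8 held in each fit that left out 1 library. In the longer list the complement genes fell least. C1qa stood at 5971, 9760, 3867 and 7459 CPM against 11306 to 12425 CPM (-1.05 ± 0.27 SE, edgeR adjusted p = 0.0025), and its call was lost without replicate 1, without replicate 3 and without the block. Of these 12 genes, 8 were called without replicate 1 and 10 without replicate 3. Replicate 2 was the highest.

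Interferon-responsive genes were higher in 6 of 11 tested, with none lower and a median of 1.59. Of the 9 that could enter without the class II high cells, 5 were higher. Ifitm3, which restricts virus entry, gave 54.5% of the UMIs of the list and stood at 1353, 1097, 3433 and 1958 CPM against 27.5 to 59.4 CPM (5.54 ± 0.29 SE, edgeR adjusted p = 1.18e-79). Ifi27l2a stood at 500, 223, 986 and 782 CPM against 14.3 to 34.8 CPM, and Bst2 at 390 to 653 CPM against 159 to 190 CPM. Without replicate 4, 3 of 10 were called, and the call of Bst2 was lost with thinned cells. Irf1, a transcription factor induced by interferon gamma, which is the classical inducer of Ciita, stood at 29.4 to 55.8 CPM against 35.9 to 38.5 CPM (0.32 ± 0.51 SE, edgeR adjusted p = 0.778).

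For the other lists, the shares over all genes tested were 4.57% higher and 4.46% lower. Among genes that could enter without the class II high cells, 3.07% were higher. A single call in a list was not set apart from these shares. Chemokine ligands were higher in 3 of 8 tested and lower in none. Of the 7 that could enter without the class II high cells, 2 were higher. Without replicate 4 or with thinned cells, 1 of 8 was higher. Cxcl16 stood at 235, 223, 118 and 296 CPM against 68.0 to 80.4 CPM (1.55 ± 0.32 SE, edgeR adjusted p = 4.33e-05), a call lost in both. Among chemokine receptors, Ccr1 was higher, a call lost without replicate 4, with thinned cells and with the cells of low microglial share alone. Adhesion genes were higher in 3 of 5, all 3 able to enter the test only through the class II high cells and so only to be called higher, among them Itgb7 and Itga4, whose products pair as an integrin for vascular and mucosal addressins. Lineage transcription factors were higher in 4 and lower in 4 of 15, against 1 and 3 of 12 without replicate 4. Of the 12 that could enter without the class II high cells, 1 was higher. Mef2c stood at 237 to 647 CPM against 966 to 1014 CPM, and Spi1, the general myeloid factor PU.1, at 486 to 912 CPM against 557 to 604 CPM (-0.11 ± 0.26 SE, edgeR adjusted p = 0.865). Among Fc receptors Fcgr4 was higher (a call lost without replicate 4 and with thinned cells), Fcgr1 and Fcgr3 were lower (both calls lost without replicate 1, and that of Fcgr1 also without replicate 2, with DESeq2 and with thinned cells) and Fcer1g did not pass (-0.04 ± 0.26 SE, edgeR adjusted p = 0.965). Of 24 genes tested of the 25-gene signature of microglia activated outside the body, 5 were higher and 1 was lower, with a median of -0.33, and without replicate 4 1 was higher and 1 lower. The list summed to 2118, 3123, 2407 and 4242 CPM in class II high cells and 2755, 2821, 2913 and 4650 CPM in other cells, with replicate 4 highest in both. Klf2, a shear-responsive transcription factor of that list, stood at 382, 558, 355 and 387 CPM against 15.5 to 120 CPM and did not overlap between the groups. Of 5 dendritic genes tested 3 were higher, each of them able to enter only through the class II high cells, and 1 was lower; without replicate 4, 1 was higher and 1 lower. The B cell, endothelial, oligodendrocyte and astrocyte lists had no call.

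The third question was how the 67 cells divided by macrophage and monocyte markers. A cell was macrophage-marked when its UMIs of Pf4, Mrc1, Cd163 and Ms4a7 summed to 3 or more and exceeded those of Plac8, Ccr2, Ly6c2 and S100a4, and monocyte-marked in the reverse case. There were 20 macrophage-marked cells (4, 3, 1 and 12 in replicates 1 to 4), 23 monocyte-marked cells (4, 2, 3 and 14), 1 tied cell in replicate 4 and 23 unmarked cells (2, 7, 3 and 11). As shares of the class II high cells this was 27.7% ± 10.9, 34.1% ± 11.9 and 37.5% ± 16.8 for the macrophage-marked, monocyte-marked and unmarked cells (SD, n = 4). In replicate 4 alone the shares were 31.6% (95% exact interval 17.5 to 48.7%), 36.8% (21.8 to 54.0%) and 28.9% (15.4 to 45.9%), and each of the 3 classes had more cells there than in any other library. The classes are ranges of counts and not clusters: the larger of both sums was exactly 2 in 6 cells and exactly 3 in 4, both sums reached 3 in 6 cells, and 12 cells had no marker UMI at all.

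Class II sums overlapped between the marked classes. The median class II sum was 236 UMIs in macrophage-marked cells (range 18 to 607) and 298 in monocyte-marked cells (10 to 987), at a median depth of 3211.5 and 4453 UMIs, and it was 42 in unmarked cells (10 to 449). H2-DMa was found in 20 of 20 macrophage-marked and 20 of 23 monocyte-marked cells, with 1457, 1054 and 1782 CPM in the macrophage-marked sums (replicates 1, 2 and 4) and 1454, 921 and 1272 CPM in the monocyte-marked sums (replicates 1, 3 and 4). Only 2 libraries held at least 3 cells of both classes, fewer than the 3 set as a minimum, so no test was made and the differences below are descriptions. Levels are CPM over UMIs without the class II and marker genes, in the sums of at least 3 cells.

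The genes highest by fold in monocyte-marked cells carried 20 to 417 UMIs there. They were S100a6, Cd209a, Ifitm6, Gm9844, Napsa, Tmsb10, Pglyrp1 and Klrd1. S100a6 had no UMI in the 20 macrophage-marked cells and stood at 1686, 1645 and 1433 CPM in the monocyte-marked sums, from 16 of 23 cells. Tmsb10, a regulator of actin, stood at 3314, 9013 and 3203 CPM against 146, 144 and 119 CPM, with UMIs in 21 of 23 and 8 of 20 cells. Napsa stood at 872, 855 and 435 CPM against 0, 0 and 29.7 CPM. Ifitm6, absent from the macrophage-marked cells, was found in 10 of 23 monocyte-marked cells, whereas Pglyrp1 came from 3 cells and Cd209a from 5.

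Ifitm3, given above as higher in the whole group, stood at 2442, 5132 and 3638 CPM in the monocyte-marked sums and at 218, 192 and 653 CPM in the macrophage-marked sums. Lgals3 and Crip1, a LIM domain protein, were divided in the same direction, with UMIs in 17 and 21 of 23 monocyte-marked cells and in 2 and 7 of 20 macrophage-marked cells. Lyz2 stood at 15002, 15000 and 29247 CPM against 8812, 3499 and 13304 CPM, and was found in every cell of both classes.

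The genes highest by fold in macrophage-marked cells were Cd151, Gas6, Cd27, Gadd45g, Lrrc3, Smg9, Tmcc3 and Zfyve21, each on 6 to 22 UMIs. Gas6, the bridging ligand of Axl and Mertk, had 20 UMIs in 10 of 20 macrophage-marked cells, at 218, 144 and 386 CPM, and 1 UMI in the 23 monocyte-marked cells. Abundant genes followed below these in fold. Apoe stood at 47994, 20753 and 43743 CPM in the macrophage-marked sums and at 8082, 7632 and 18093 CPM in the monocyte-marked sums. C1qa stood at 10196, 10928 and 10156 CPM against 2849, 461 and 2865 CPM, and Maf, a macrophage transcription factor, at 1311, 719 and 772 CPM against 116, 65.8 and 113 CPM. None of these ranges overlapped.

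**Figure D3:**
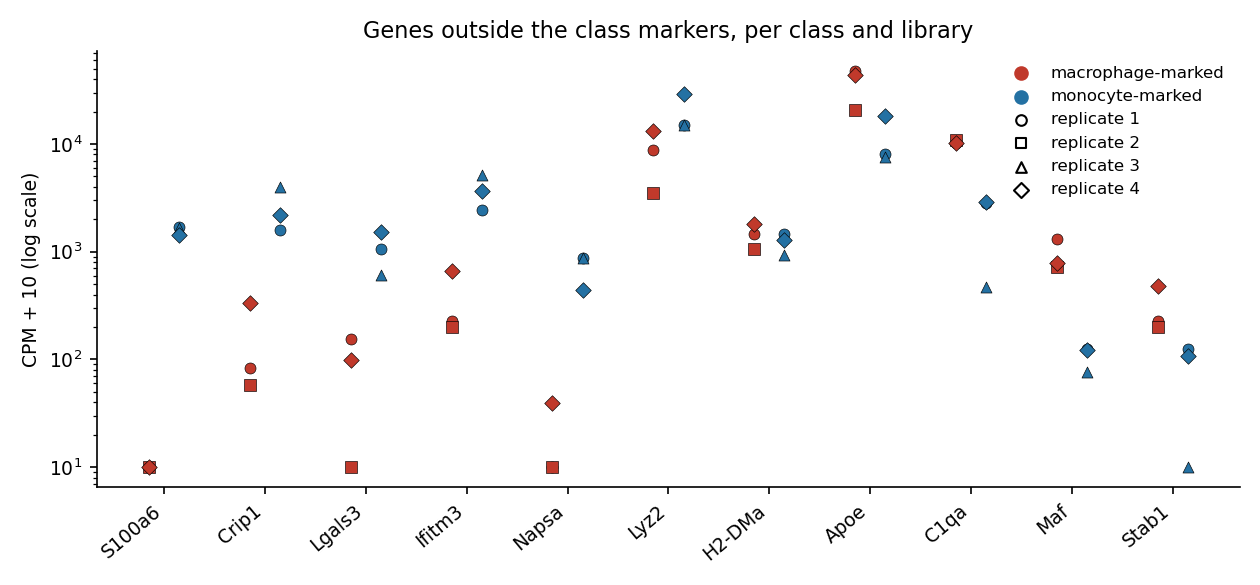
CPM + 10 on a log scale of 11 genes that were not used to set the classes, in macrophage-marked cells (red, replicates 1, 2 and 4) and monocyte-marked cells (blue, replicates 1, 3 and 4), 1 point per sum of at least 3 cells. S100a6, Crip1, Lgals3, Ifitm3 and Napsa lie higher in every monocyte-marked sum, Apoe, C1qa, Maf and Stab1 higher in every macrophage-marked sum, and H2-DMa overlaps.

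The monocyte-marked cells were themselves mixed, as seen in subsets chosen after their values were known. Cd209a, a lectin of monocyte-derived and conventional type 2 dendritic cells, reached 5 or more UMIs in 5 cells (2 in replicate 1, 1 in replicate 3 and 2 in replicate 4), at 6 to 34 UMIs each. Their class II sums had a median of 654 UMIs (230 to 987). They held at most 2 UMIs of Apoe and at most 7 of Lyz2, and 2 of the 5 had Flt3, the receptor of the dendritic growth factor Flt3 ligand. Of the 29 H2-DMb2 UMIs 28 were theirs.

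Plac8, a marker of circulating monocytes, reached 10 or more UMIs in 6 cells (2 in replicate 3 and 4 in replicate 4), of which 1 was also among the Cd209a cells. Their class II sums had a median of 134 UMIs (16 to 654), and their median Lyz2 was 187.5 UMIs and median Ifitm3 36.5. Ly6c2, which marks classical monocytes, was found in 2 of them, with 47 of its 49 UMIs in 1 cell. A larger set of 15 cells had 3 or more UMIs of Ccr2, little Plac8 and little Cd209a, 10 of them monocyte-marked, 4 macrophage-marked and 1 tied. In these Apoe had a median of 119 UMIs and C1qa of 26, and 8 of them also had Pf4.

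Cells with the same marks but few class II UMIs were looked at next. Of 31 macrophage-marked cells with a microglial marker share under the 5th percentile of the other cells, 19 were class II high (61.3%, 95% exact interval 42.2 to 78.2%) and 12 were not, 10 of the latter in replicate 4. Of 41 monocyte-marked cells of that kind, 23 were class II high (56.1%, 39.7 to 71.5%). In replicate 4 it was 14 of 17 (82.4%, 56.6 to 96.2%), and in replicate 1 4 of 13 (30.8%, 9.09 to 61.4%). The intervals cover counting error only.

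The 12 macrophage-marked cells of low class II differed from the 19 of high class II in the genes of resident border macrophages. Summed over libraries, Stab1 stood at 1581 CPM (86 UMIs, 95% exact Poisson interval 1264 to 1952) in the former and 371 CPM (23 UMIs, 235 to 557) in the latter, and F13a1 at 882 CPM (650 to 1170) and 178 CPM (88.7 to 318). Cbr2, carbonyl reductase 2, had 23 UMIs in 10 of 12 cells against 1 UMI in 19 cells. Cd209f (25 UMIs), Lyve1 (18 UMIs) and Folr2 (12 UMIs), the hyaluronan and folate receptors among them, were found in the low class II cells and at 0 in the high ones, which allows up to 48.4 CPM there. Conversely Ccr2 had 32 UMIs in 9 of the 19 class II high cells and 0 in the 12, and Clec12a 18 UMIs in 11 cells against 2 in 2. Apoe was high in both, at 39581 and 49125 CPM in the class II high and low cells. The 19 include cells at 44.0% (replicate 1), 58.5% (replicate 2), 56.3% and 34.5% (both replicate 4) of the median microglial share. These lie above the lower cut used further on for possible mixed barcodes, and the contrast was not repeated without them.

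Within replicate 4, where 12 cells of the high and 10 of the low kind came from the same mouse, the order was the same. Stab1 stood at 473 and 1802 CPM, F13a1 at 296 and 990 CPM, Cbr2 at 29.6 and 457 CPM and Ccr2 at 562 and 0 CPM, in the class II high and low cells. With 22 cells of 1 mouse and 9 of the other 3, the difference has no check between mice and no test.

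**Figure D4:**
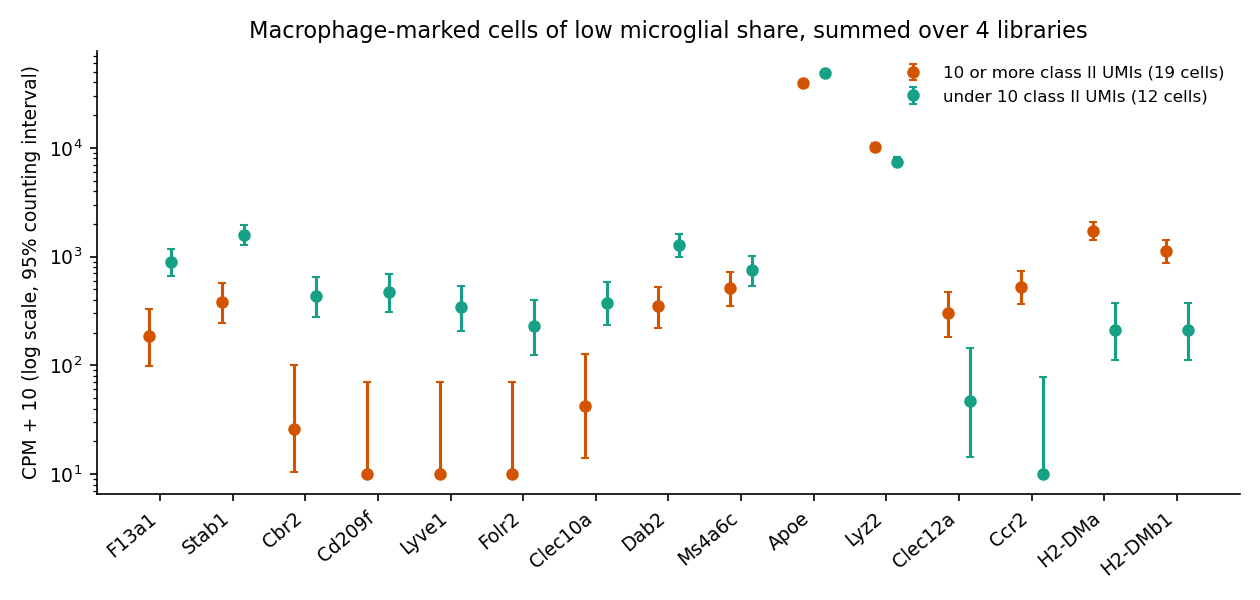
CPM + 10 on a log scale, with 95% exact Poisson intervals, in macrophage-marked cells of low microglial share with 10 or more class II UMIs (orange, 19 cells) or fewer (green, 12 cells), summed over the 4 libraries. F13a1, Stab1, Cbr2, Cd209f, Lyve1 and Folr2 lie higher in the cells of low class II, and Clec12a, Ccr2, H2-DMa and H2-DMb1 lie higher in those of high class II.

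The last question was whether class II high cells could be barcodes that hold a microglial cell as well. A marked cell whose microglial marker share reached the 5th percentile of the other cells of its library was taken as a candidate mixed barcode. This found 1 of the 67 cells (1.49%, 95% exact interval 0.0378 to 8.04%), a macrophage-marked cell in replicate 2. It held 10392 UMIs, the most of all class II high cells, with 226 class II UMIs, 10 macrophage and 6 monocyte marker UMIs, 40 P2ry12 UMIs and 30 Tmem119 UMIs, and its microglial share was 82.6% of the median of the other cells. No other library had a candidate, which allows shares of up to 30.8%, 41.0% and 9.25% in replicates 1, 3 and 4 (exact upper limits). These limits hold only for barcodes that the rule could flag. Over the 4 libraries the cut lay at 1.17 to 1.32% of UMIs, against medians of 1.94 to 2.01% in the other cells. Marked barcodes below that cut and all unmarked cells could not be flagged.

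At a lower cut, 33.3% of the median of the other cells, 5 marked cells were found (1, 2, 0 and 2 in replicates 1 to 4), all macrophage-marked, with a median of 6784 UMIs. This cut was chosen after the data were seen. The other 39 marked cells lay below it, with a median of 3503 UMIs and a median class II sum of 287. Of macrophage-marked cells below 10 class II UMIs, 17 of 29 reached the 5th percentile, with a median of 9932 UMIs. The study removed barcodes with markers of 2 cell types, the deposited matrices still held them, and none was removed here.

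The 23 unmarked cells fell on both sides of the same line. Of these, 10 reached 33.3% of the median microglial share (0, 3, 1 and 6 in replicates 1 to 4), with only 10 to 42 class II UMIs, 928 CPM of Apoe and 14232 CPM of C1qa, and with Pf4 and Ccr2 at 0 UMIs. The other 13 lay below it (2, 4, 2 and 5), with a median of 264 class II UMIs (21 to 449), and Apoe stood at 44118 CPM and Lyz2 at 15817 CPM, both found in all 13. Thus 10 of the 67 cells had neither macrophage nor monocyte marks and a microglial share that overlapped that of the other cells, and the border label does not hold for them by these markers. With the 52 cells below the line alone, 431 genes were higher and 628 lower, 409 and 399 of them among the original calls.

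**Figure D5:**
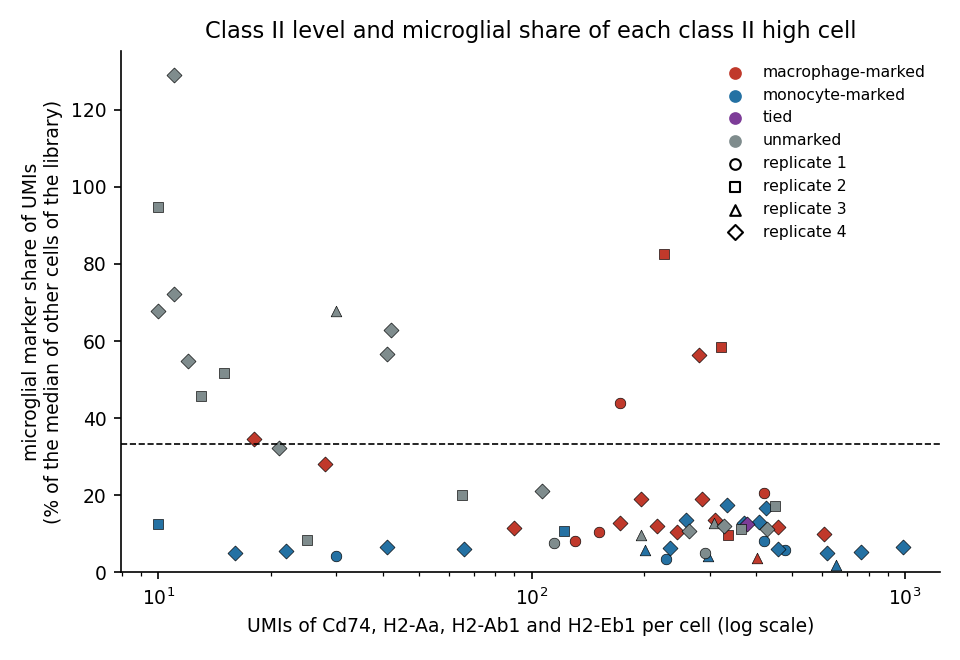
Each of the 67 class II high cells by its class II UMIs (log scale) and its microglial marker share as a percentage of the median of the other cells of its library, coloured by marker class and with a symbol for each replicate. The dashed line marks 33.3%. The 10 unmarked cells above it hold 10 to 42 class II UMIs, and the 5 marked cells above it are macrophage-marked.

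Barcodes were compared between libraries as well. Pairs of libraries shared 6 to 21 cell barcodes, 84 in all, and 0 of these pairs joined class II high cells, while 1 class II high barcode recurred in another library among the other cells.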

How the data were processed

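Processed data were 4 matrices of UMI counts per gene and cell, 1 per mouse. As deposited, the counts were whole numbers and not normalised: per the labels and the study's methods, the authors used 10x Genomics 3′ chemistry (version 2), bcl2fastq and Cell Ranger 2.2.0 against mm10 (GRCm38) with a filtered Ensembl annotation of 28692 genes. Only called cells were deposited. Total counts per library were 5867333 to 11275195 UMIs. Seurat is also named in the submitters' processing notes, and no value from it was used.

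Members and gene lists were chosen with earlier results of these data known. Counts were summed per library over class II high and other cells, without the 4 genes of the rule, and tested with edgeR 4.0.16 in R 4.3.3 (glmQLFit and glmQLFTest, TMM, filterByExpr, mouse as block, since both sums came from the same mouse, Benjamini-Hochberg over all 10095 genes tested, called at 0.05). DESeq2 1.42.0 was an alternative. CPM are per 1000000 UMIs without these 4 genes. The script was tested on simulated data. Named genes were the 10 largest changes in each direction among called genes with 1 sign in 4 libraries and at least 100 CPM in the higher class, the 8 largest folds (CPM + 10) each way between marker classes, and up to 4 abundant members or a defining marker of each list; others are named where they were all the calls of a list. Intervals (95%) and the floor of 3 UMIs cover counting error only. Genes and coordinates were joined to GENCODE M21 by Ensembl identifier (273 of 273). Python 3.11.15, scipy 1.17.1 and matplotlib 3.10.9 were used. Sirpb1b and Sirpb1c, H2-DMb1 and H2-DMb2, and other close paralogues share sequence, so their counts may be divided wrongly. The rule uses raw UMIs, which favours deep cells: the median depth was 3288 UMIs in class II high and 2429 in other cells. Results on some genes are not reported here.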

Additional observations from a re-analysis of the deposited data

Results flagged for a closer look

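In 51 values of 4 libraries each, Dixon's range test at the 95% level set 8 apart, where chance flags about 1 in 20 of independent values. These values are not independent. The share and the number of class II high cells count the same cells, the microglial level is also a list sum, and some genes were chosen from these data. In replicate 4, class II high cells made up 1.20% of kept cells (0.272 to 0.325% elsewhere) and numbered 38 (7 to 12 elsewhere), and 29.1% of the other cells had a class II UMI (10.6 to 12.1% elsewhere). In replicate 2, the dendritic list of the class II high cells was low at 501.9 CPM (750 to 794 CPM elsewhere). In replicate 3, the lipid and scavenger list was low at 11404 CPM (25115 to 25983 CPM elsewhere). Plbd1 was low in replicate 2, at 55.8 CPM (304 to 353 CPM elsewhere). Rtn4rl1 and Nav3 were each high in replicate 2, at 55.8 CPM from 3 UMIs (0 to 7.59 CPM elsewhere).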

How the results depend on the processing

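Leaving out 1 library at a time gave 212 to 385 higher and 187 to 409 lower genes, against 461 and 450 with all 4; the lowest higher count was without replicate 4, and the lower count fell to 187 without replicate 1, 275 without replicate 2 and 286 without replicate 4. DESeq2 called 175 lower genes. Thinning each cell to 1000 UMIs left 93 higher and 220 lower, with fewer genes tested (8550) and fewer UMIs. Without the replicate block there were 458 higher and 653 lower genes of 9566 tested; the pairing is that both sums of a library come from 1 mouse. The share of candidate mixed barcodes, averaged over libraries, moved from 2.08% to 7.98% at the cut of 33.3% of the median, which was added after the data were seen, as were 2 fits with other cell sets. Of 105 named genes 74 were called, and 51 of these kept direction and call in each of the 15 alternatives that tested them; 23 lost the call in at least 1, and Psmb8 turned to a log2 fold change of -0.38 when thinned. The alternatives planned for a test between marker classes were not run, since 2 libraries held enough cells of both. Depth limits most genes: the class II high cells of a library held 27434 to 141346 UMIs, so that 1 UMI in the smallest was worth 39.5 CPM.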
